A study of Mus musculus with 6 samples.

Results

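The 9 genes described here encode pacemaker and voltage-gated potassium channel subunits of the heart: Hcn2, Hcn4, Kcnd2, Kcnd3, Kcnip2, Kcnq1, Kcne1, Kcnh2 and Kcna5. They were taken by name, through the GENCODE M21 symbols of the Ensembl identifiers, and all 9 of them were found among the 18951 genes of the count table. RNA was sequenced from 6 cultures labelled as neonatal mouse cardiomyocytes, made from hearts of C57BL/6 mice (C57BL/6J in the protocols) at postnatal day 1. Of these, 3 (si-Rbm22) had received an siRNA against Rbm22, a splicing factor, and 3 (si-Control) a scrambled siRNA. One protocol is given for all cultures, with overnight culture in serum and harvest 48 h after transfection, and no transgene or mutation is given for either group. Cell purity is stated as above 97.5% by staining for cardiac troponin T. Whether each replicate came from its own isolation is not stated, and p-values reflect no more than the spread between the cultures.

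In the heart, hyperpolarization-activated HCN channels carry the inward pacemaker current that drives diastolic depolarization in the sinoatrial node, and their opening is eased by cyclic AMP. Voltage-gated potassium (Kv) channels carry the outward currents that repolarize the action potential: Kv4 channels the fast transient outward current, Kv7.1 and Kv11.1 the slow and rapid delayed rectifier currents, and Kv1.5 an ultrarapid current. Small accessory proteins of the KChIP and KCNE families bind the pore subunits and set their surface level and gating. In adult mice the transient outward and Kv1 and Kv2 currents carry most ventricular repolarization, and the delayed rectifier genes are more strongly used around birth.

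Total counts were 36860678 to 37344860 in si-Rbm22 and 34269042 to 35955301 in si-Control. Rbm22 itself was at 13.5 ± 0.892 CPM in si-Rbm22 and 23.2 ± 1.79 CPM in si-Control (CPM, the read count scaled to the TMM-adjusted library total; SD, n = 3 each). The si-Control libraries went against their cell type label. All 10 cardiomyocyte markers passed the test as higher in si-Rbm22, where they summed to 23261 to 36750 CPM, against 40.4 to 46.3 CPM in si-Control, and 5 of the 10, Mybpc3, Myl2, Myl7, Pln and Nppa, had no read in any si-Control library. Tnnt2, which encodes the stained troponin, had 167568, 194812 and 135099 reads in si-Rbm22 and 1413, 1568 and 1542 in si-Control. Of 8 skeletal muscle precursor markers, 7 were lower in si-Rbm22 and the eighth was not tested. Their sum was 0.0278 to 0.191 CPM in si-Rbm22, where 5 of the 8 had no read, and 272.7 to 299.8 CPM in si-Control. Markers of other cell types of the heart were mostly higher in si-Rbm22 too. All 8 endothelial markers were (304.2 to 348.6 CPM in si-Rbm22, 1.71 to 2.15 CPM in si-Control), as were all 8 epicardial and mesothelial markers (2365 to 2596 CPM in si-Rbm22, 50.2 to 53.7 CPM in si-Control). Of 8 macrophage markers 7 were (118.6 to 156 CPM in si-Rbm22, 5.57 to 7.36 CPM in si-Control), and of 7 Schwann cell markers 4 (100.8 to 106.7 CPM in si-Rbm22, 2.51 to 2.54 CPM in si-Control). The other 1 macrophage marker and 3 Schwann cell markers were not tested. Fibroblast markers split, with 3 of 10 higher and 6 lower (5696 to 5893 CPM in si-Rbm22, 21413 to 23248 CPM in si-Control), as did smooth muscle and pericyte markers, with 6 of 10 higher and 4 lower (2386 to 2875 CPM in si-Rbm22, 2857 to 2935 CPM in si-Control). Every comparison between the groups given below therefore also compares cultures of unlike marker content, and the siRNA and that content cannot be told apart. Whether the si-Control libraries come from the cultures their labels name cannot be checked from the count table. In bulk RNA, fewer cells of a type and less RNA per cell cannot be told apart either.

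RefSeq sequence upstream of the transcription start was at hand for 7 of the 9 genes, Kcnq1 and Kcne1 being the others. Shown are the 250 bases before the start for both pacemaker genes, of which Hcn2 had reads in both groups and Hcn4 in si-Rbm22 only, and for Kcnd2 and Kcnip2, partners in the transient outward channel that had almost no reads in si-Control. The sequences run 5′ to 3′ on the gene's strand (RefSeq, GRCm38.p6): Hcn2 chr10:79716384-79716633 (plus), Hcn4 chr9:58822699-58822948 (plus), Kcnd2 chr6:21215096-21215345 (plus) and Kcnip2 chr19:45816064-45816313 (minus). Capitals mark the GC box GGGCGG and the NKX2-5 core AAGTG on either strand.
Hcn2 promoter: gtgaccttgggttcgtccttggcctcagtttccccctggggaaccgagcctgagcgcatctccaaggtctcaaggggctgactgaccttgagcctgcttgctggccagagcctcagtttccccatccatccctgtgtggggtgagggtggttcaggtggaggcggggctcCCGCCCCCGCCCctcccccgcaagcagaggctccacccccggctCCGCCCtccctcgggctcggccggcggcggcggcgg
Hcn4 promoter: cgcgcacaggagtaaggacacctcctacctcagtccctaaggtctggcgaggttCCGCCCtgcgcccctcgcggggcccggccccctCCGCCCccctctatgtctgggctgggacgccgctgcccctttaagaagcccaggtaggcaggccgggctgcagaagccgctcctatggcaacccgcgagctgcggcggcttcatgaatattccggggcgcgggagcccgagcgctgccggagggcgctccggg
Kcnd2 promoter: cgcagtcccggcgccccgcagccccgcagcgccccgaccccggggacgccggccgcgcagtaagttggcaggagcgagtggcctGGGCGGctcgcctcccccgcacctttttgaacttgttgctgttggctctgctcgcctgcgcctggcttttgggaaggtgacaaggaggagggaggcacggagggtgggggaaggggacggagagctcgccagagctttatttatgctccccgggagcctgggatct
Kcnip2 promoter: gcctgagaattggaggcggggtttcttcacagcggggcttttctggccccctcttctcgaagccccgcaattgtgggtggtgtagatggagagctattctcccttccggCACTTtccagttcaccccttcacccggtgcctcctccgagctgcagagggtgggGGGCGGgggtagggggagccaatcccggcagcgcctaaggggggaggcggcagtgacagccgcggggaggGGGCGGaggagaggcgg

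The windows were rich in G and C, at 70.4% for Hcn2, 71.2% for Hcn4, 68.8% for Kcnd2 and 66.8% for Kcnip2, against a median of 52.4% over 32851 windows of the same length. They held 16, 25, 22 and 15 CpG dinucleotides in that order, where the median window held 6. GGGCGG was found in 5 of the 7 windows, with 3 matches each in Hcn2 and Kcnh2, 2 each in Hcn4 and Kcnip2 and 1 in Kcnd2, and in 32.7% of all windows. Kcnd3 and Kcna5 had none, and the Kcna5 window was also the one with the fewest CpG, 3. The NKX2-5 core AAGTG was found once in Kcnip2 and once in Kcnd3, and in 40.7% of all windows. The E-box CANNTG was found in 4 of 7 (Hcn2, Kcnip2, Kcnd3 and Kcna5) and in 66.2% of all. The GATA core GATAA was in none of the 7 windows, nor was the box TATAA or the MEF2 motif, and 22.6%, 22.8% and 0.508% of all windows held them. Both strands were searched, and matches of different motifs were counted whether or not they overlapped. The shares of all windows were not matched for G and C content. RefSeq and GENCODE place some starts apart: the RefSeq start lay 463 bases from the 5′ end of the GENCODE gene for Hcn4, 157 for Kcnd2 and 440 for Kcnd3, and for Kcnh2 it is the internal start of the shorter transcript, 22013 bases from the gene's 5′ end. The GC box stood both in Hcn2 and Kcnh2, which had reads in both groups, and in Hcn4 and Kcnd2, which had none in si-Control.

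Each of the 9 channel genes was higher in si-Rbm22 by its group mean, and 6 of them had not a single read in any si-Control library. Of all 18951 genes counted, 12.6% had no read in any si-Control library. By edgeR's quasi-likelihood test with Benjamini-Hochberg adjustment over 14621 genes, 8 of the 9 passed as higher at an adjusted p under 0.05 and 0 as lower, and Kcna5 had too few reads to be tested. Among all genes tested, 43.1% were called higher and 38.9% lower, and 4.27% were called higher with no read in si-Control. For the same 8 genes every si-Rbm22 library lay above every si-Control library, which held for 44.0% of all genes tested, and for 0 of the 8 was the reverse true, against 40.2% of all genes tested. Kcnq1, Kcne1, Kcnd2, Kcnd3, Hcn4 and Kcnip2 entered the test only through their si-Rbm22 reads and so had to differ, and their p-values are no support. The same holds for every other gene named here with no si-Control read. It also holds where si-Control reads were too few to carry a gene past the filter, as for Kcna7, Cav3 and Mef2c. Genes called lower that entered only through their si-Control reads, as the skeletal muscle precursor markers did, get no support from their p-values either. Hcn3, Pex5l, Kcnc2 and Kcnip3, all called lower, also needed their si-Control reads to pass the filter. Kcnh2 and Hcn2 had reads in every library of both groups.

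**Figure D1:**
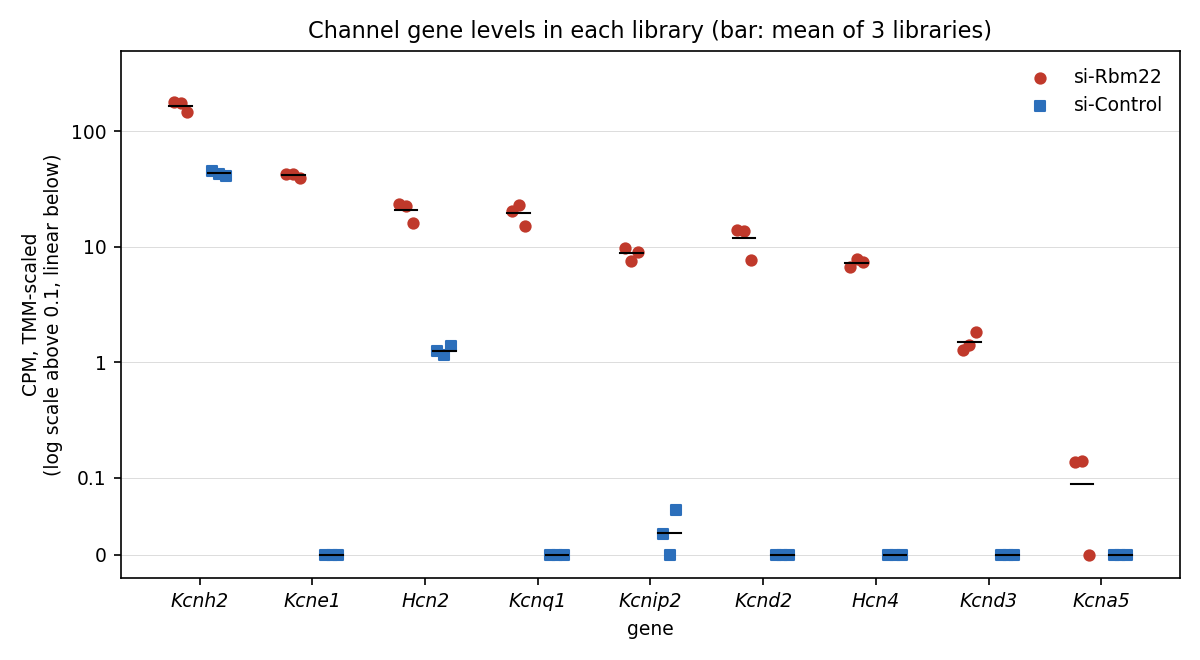
TMM-scaled CPM of each channel gene (x axis) in each library (y axis, log scale above 0.1 and linear below), with si-Rbm22 libraries as circles, si-Control libraries as squares and bars at the mean of 3 libraries. Kcnh2 and Hcn2 had reads in all libraries of both groups, Kcnip2 had 3 reads in si-Control, and the other 6 genes lay at 0 in si-Control.

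Both pacemaker channel genes were higher in si-Rbm22, against different levels in si-Control. Hcn4, which encodes the main HCN isoform of the adult sinoatrial node (ENSMUSG00000032338), lies on the plus strand of GRCm38 chromosome 9 from 58823412 to 58863175 and has 7 introns. It had 243, 280 and 277 reads in si-Rbm22 replicates 1, 2 and 3 and 0, 0 and 0 reads in si-Control. The si-Rbm22 libraries were close to each other, at 7.26 ± 0.580 CPM (SD, n = 3). Set against a floor of 3 counts over the si-Control group (0.028 CPM), Hcn4 was at least 259.7-fold higher (edgeR adjusted p = 1.35e-09). Hcn2, which encodes the isoform found in ventricle and brain as well as in the node (ENSMUSG00000020331), also has 7 introns and lies on chromosome 10 from 79716634 to 79736108, plus strand. It had 865, 812 and 606 reads in si-Rbm22 and 45, 42 and 48 reads in si-Control. All si-Control libraries thus held Hcn2 reads, and the groups did not overlap. It was at 20.8 ± 4.05 CPM in si-Rbm22 and 1.26 ± 0.114 CPM in si-Control (SD, n = 3 each), a log2 fold change of 4.04 with an SE of 0.183 (edgeR adjusted p = 7.30e-11).

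Hcn3, which encodes a further HCN isoform, was lower in si-Rbm22, with 10, 9 and 7 reads in si-Rbm22 and 70, 65 and 63 in si-Control (log2 fold change −2.95, SE 0.384, adjusted p = 6.38e-06). Pex5l, whose product TRIP8b binds HCN channels in neurons, was also lower (log2 fold change −3.33, SE 0.354, adjusted p = 7.92e-07). Both Hcn3 and Pex5l needed their si-Control reads to pass the filter on low counts, so their p-values are no support. Of 6 neuron markers, 3 were tested, of which Tubb3 and Prph were higher and Syp lower in si-Rbm22. The sum of the 6 was 18.9 to 27.4 CPM in si-Rbm22 and 14.8 to 17.8 CPM in si-Control, and 2 of the 6, Th and Elavl4, had no si-Control read. Their part in these results was not tested.

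Per length, Hcn2 was the most abundant of Hcn2, Hcn3 and Hcn4 in si-Rbm22. RPKM values (the TMM-scaled CPM per kilobase of the union of annotated exons) summed over these 3 genes were 7.75 ± 1.25 in si-Rbm22 and 0.839 ± 0.0402 in si-Control (SD, n = 3 each). Hcn2 held 83.6% ± 3.22, Hcn4 15.7% ± 3.25 and Hcn3 0.733% ± 0.0317 of this sum in si-Rbm22. In si-Control, Hcn3 held 53.0% ± 2.41 and Hcn2 47.0% ± 2.41, and Hcn4 was at 0. Within the si-Rbm22 libraries the RPKM of Hcn2 was 6.82, 5.55 and 4.19 times that of Hcn4 in replicates 1, 2 and 3.

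The 3 genes of the fast transient outward channel were higher in si-Rbm22, with 3 reads between them in the si-Control libraries. Kcnd2, which encodes the pore subunit Kv4.2 (ENSMUSG00000060882; 5 introns, plus strand of chromosome 6 from 21215503 to 21729805), had 511, 497 and 290 reads in si-Rbm22 and 0, 0 and 0 in si-Control. Replicate 3 of si-Rbm22 held clearly fewer reads than the other libraries of its group, and the mean was 11.8 ± 3.55 CPM, at least 422.8-fold higher than the si-Control floor (adjusted p = 1.54e-07). Kcnd3, which encodes Kv4.3 (ENSMUSG00000040896; 6 introns, plus strand of chromosome 3 from 105452330 to 105674002), had 47, 51 and 69 reads in si-Rbm22 and 0, 0 and 0 in si-Control. At 1.51 ± 0.289 CPM it was at least 54.1-fold higher (adjusted p = 1.49e-06), and here replicate 3 was the highest library. Kcnip2, which encodes KChIP2, the calcium-binding subunit that brings Kv4 channels to the membrane (ENSMUSG00000025221; 9 introns, minus strand of chromosome 19 from 45791839 to 45816061), had 357, 273 and 339 reads in si-Rbm22 and 1, 0 and 2 in si-Control. It was at 8.79 ± 1.10 CPM in si-Rbm22, with a count ratio of 314.4 to si-Control (95% counting interval 107.3 to 1527; adjusted p = 1.45e-10). Its size rests on those 3 reads: the log2 fold change was 8.13, and 8.98 without si-Control replicate 3.

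Kcnd1, which encodes the remaining Kv4 pore subunit Kv4.1, moved against these genes, with 62, 68 and 107 reads in si-Rbm22 and 283, 282 and 246 in si-Control (log2 fold change −1.81, SE 0.211, adjusted p = 1.98e-06). It supplied all Kv4 reads of the si-Control libraries. By RPKM, Kcnd2 held 79.0% ± 10.2, Kcnd1 15.2% ± 7.81 and Kcnd3 5.82% ± 2.41 of the Kv4 sum in si-Rbm22 (SD, n = 3), and that sum was 2.86 ± 0.545 in si-Rbm22 against 1.43 ± 0.0768 in si-Control. Kcnip2 held 95.8% ± 2.84 of the KChIP sum in si-Rbm22 and 3.25% ± 3.46 in si-Control, where Kcnip3 held 92.6% ± 4.14. Kcnip3 itself was lower in si-Rbm22 (log2 fold change −1.26, SE 0.50, adjusted p = 0.0318). With 4, 20 and 17 reads in si-Rbm22 it needed si-Control reads to pass the filter on low counts, so this p-value is no support. The RPKM of Kcnip2 was 1.04, 0.814 and 1.73 times that of Kcnd2 in si-Rbm22 replicates 1, 2 and 3, above 1 in the first and the third and below 1 in the second.

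**Figure D2:**
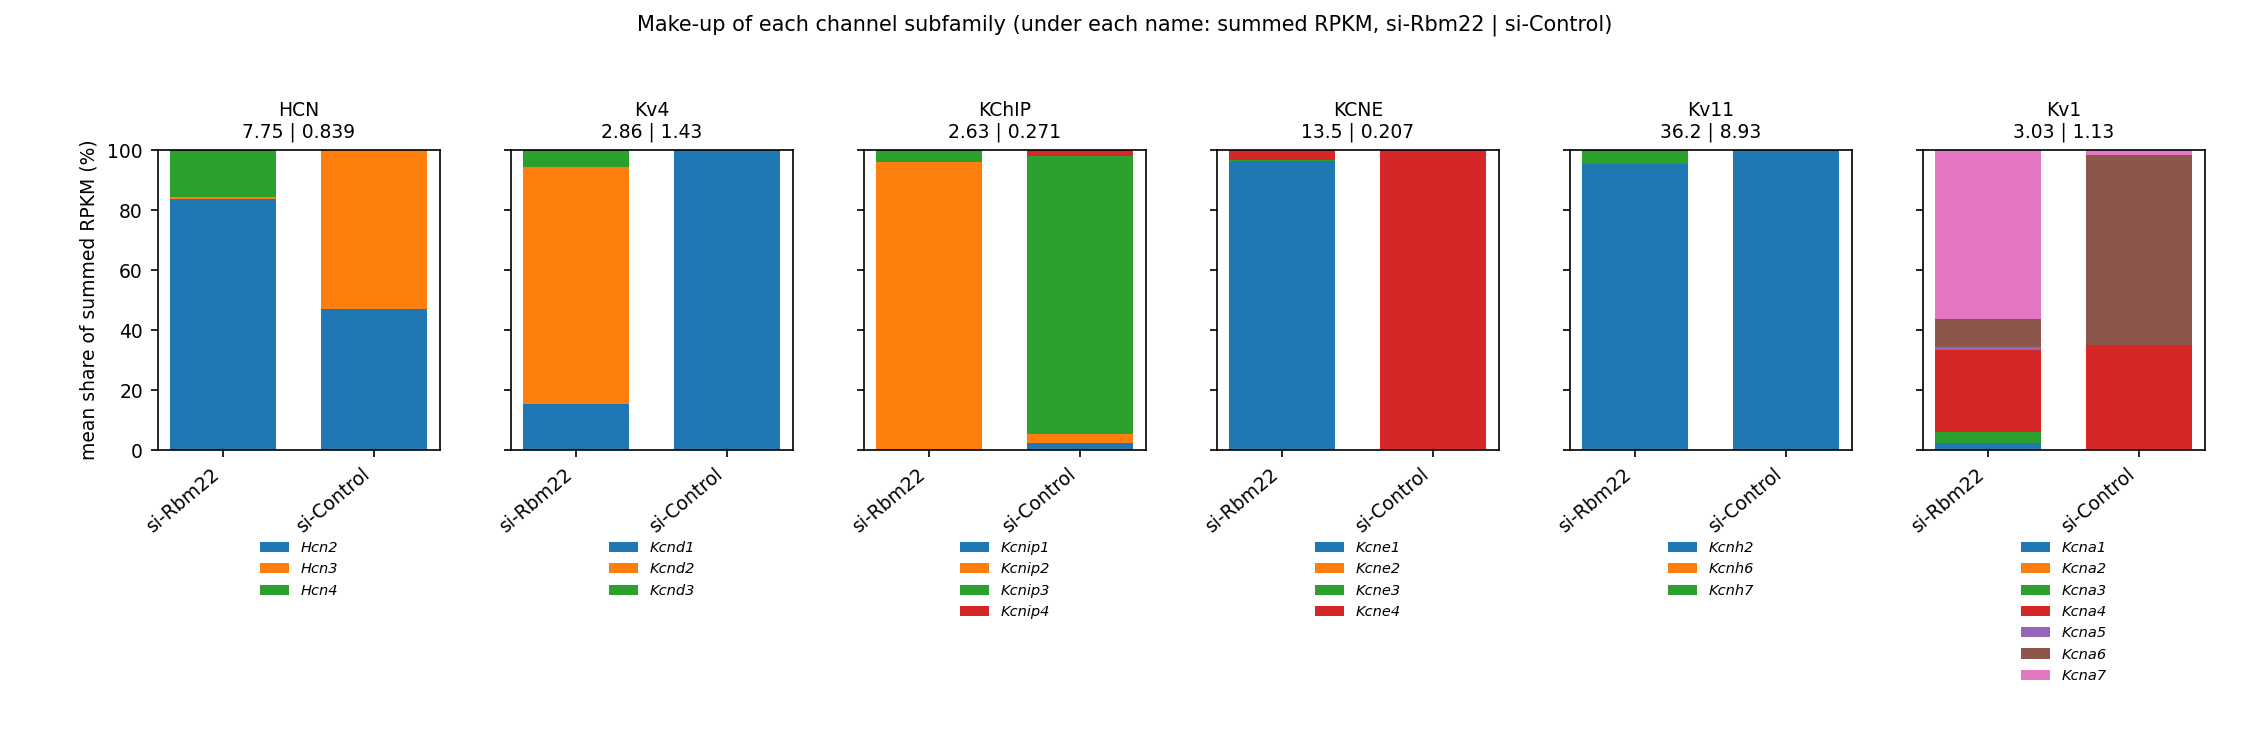
Mean share of each gene in the summed RPKM of its subfamily (y axis, %), with si-Rbm22 left of si-Control in each panel and the summed RPKM of both groups under the panel name. Hcn2, Kcnd2, Kcnip2 and Kcne1 held the largest share of the genes shown for their subfamily in si-Rbm22, Kcnh2 did so in both groups, and Kcna5 held under 1% of Kv1.

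Both subunit genes of the slow delayed rectifier channel were higher in si-Rbm22 and had no read in si-Control. Kcnq1, which encodes the pore subunit Kv7.1 (ENSMUSG00000009545; 15 introns, plus strand of chromosome 7 from 143106362 to 143427042), had 752, 828 and 571 reads in si-Rbm22 and 0, 0 and 0 in si-Control. At 19.6 ± 3.98 CPM it was at least 699.9-fold higher (adjusted p = 9.13e-10). Kcne1, whose product (minK) slows the opening of Kv7.1 and raises its current (ENSMUSG00000039639; 1 intron, minus strand of chromosome 16 from 92345982 to 92359468), had 1564, 1529 and 1495 reads in si-Rbm22 and 0, 0 and 0 in si-Control. These were the most even libraries of any of the 9 genes, at 41.7 ± 1.60 CPM, and the level was at least 1489-fold higher (adjusted p = 3.54e-13). The RPKM of Kcne1 was 2.65, 2.35 and 3.33 times that of Kcnq1 in replicates 1, 2 and 3. Kcne1 held 96.2% ± 2.59 of the KCNE sum in si-Rbm22, and in si-Control all reads of the KCNE genes analysed came from Kcne4.

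The annotation places the antisense transcript gene Kcnq1ot1 within Kcnq1, Kcnd3os against Kcnd3 and Gm15589 against Kcnh2. These were not analysed here, and the strand setting of the counting is not given in the sources used here, so reads of a gene and its antisense partner cannot be told apart. No read was counted to Kcnq1 or Kcnd3 in si-Control.

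Kcnh2 was the most abundant of the 9 genes in both groups. It encodes Kv11.1 (ERG1), the pore of the rapid delayed rectifier (ENSMUSG00000038319; chromosome 5, 24319589 to 24351604, minus strand, 14 introns in its longest coding transcript). It had 6526, 6383 and 5491 reads in si-Rbm22 and 1635, 1565 and 1440 in si-Control. The lowest si-Rbm22 library stood over all si-Control libraries, and the level was 167.3 ± 18.2 CPM in si-Rbm22 and 43.2 ± 1.82 CPM in si-Control (SD, n = 3 each). Kcnh2 was thus 3.87-fold higher in si-Rbm22, a log2 fold change of 1.95 with an SE of 0.0790 (edgeR adjusted p = 3.78e-11). It held 95.4% ± 0.533 of the Kv11 sum in si-Rbm22 and 100% in si-Control. Kcnh7, another ERG channel gene known mainly from brain, supplied most of the remainder, with 984, 1074 and 726 reads in si-Rbm22 and 0, 0 and 0 in si-Control (at least 906-fold higher).

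Kcna5 was close to undetected everywhere. It encodes Kv1.5, the pore of the ultrarapid current (ENSMUSG00000045534; chromosome 6, 126532551 to 126535412, minus strand, no intron), and had 5, 5 and 0 reads in si-Rbm22 and 0, 0 and 0 in si-Control. The 10 reads have an exact Poisson interval of 4.80 to 18.4, which covers counting error only. Set against 3 counts over si-Control the mean was 3.28-fold higher, which leaves out the counting error of the 10 reads and so is no lower bound. Replicate 3 of si-Rbm22 overlapped the si-Control libraries. Without a filter on low counts its adjusted p was 0.0380. Other Kv1 genes were far above it: by RPKM, Kcna7 held 56.2% ± 3.52 and Kcna4 27.2% ± 4.52 of the Kv1 sum in si-Rbm22, and Kcna5 held 0.958% ± 0.829. In si-Control, Kcna6 held 63.4% ± 1.86 and Kcna4 35.1% ± 2.64.

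Ordered by RPKM in si-Rbm22, Kcnh2 came first at 34.5 ± 3.76, followed by Kcne1 at 13.0 ± 0.499, Hcn2 at 6.50 ± 1.27 and Kcnq1 at 4.78 ± 0.973 (SD, n = 3 each). Kcnip2 stood at 2.53 ± 0.317, Kcnd2 at 2.30 ± 0.690 and Hcn4 at 1.19 ± 0.0949, with Kcnd3 at 0.158 ± 0.0302 and Kcna5 at 0.0321 ± 0.0278 last. The library ranges of Hcn2 and Kcnq1 overlapped, as did those of Kcnip2 and Kcnd2, and the ranges of all other neighbours down to Kcnd3 and Kcna5 were apart. Among 18856 genes with an annotated length, Kcnh2 was above 93.0% in si-Rbm22, Kcne1 above 79.7%, Kcnq1 above 59.4%, Hcn4 above 41.1% and Kcna5 above 16.2%. In si-Control, Kcnh2 was at 8.93 ± 0.375 RPKM, above 72.0% of genes, and Hcn2 at 0.395 ± 0.0357, above 37.7%. The other 7 genes had 3 reads or fewer over the si-Control libraries.

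The 9 genes did not vary alike among the si-Rbm22 libraries. Replicate 3 had the lowest level of Kcnd2, at 65.3% of the mean of the 3 libraries, and also of Kcnq1 (77.7%), Hcn2 (77.7%), Kcnh2 (87.4%) and Kcne1 (95.6%). For Hcn4 it stood at 102% and for Kcnip2 at 103%, between the other libraries, and for Kcnd3 at 121%, above them. Kcna5, which was not tested, had 5 reads each in replicates 1 and 2 and 0 in replicate 3. The cardiomyocyte genes Myh6 and Tnnt2 were at 65.3% and 79.5% of their mean in that library and the 10 cardiomyocyte markers together at 73.7%. Endothelial markers were at 93.4% there, fibroblast markers at 102% and epicardial and mesothelial markers at 106%. The range for Kcnd2 was the widest among the 8 tested genes, with the lowest library at 55.4% of the highest, and that for Kcne1 the narrowest, at 93.2%. Myh6 had its lowest library at 55.6% of the highest. The part of marker content in these differences was not tested.

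**Figure D3:**
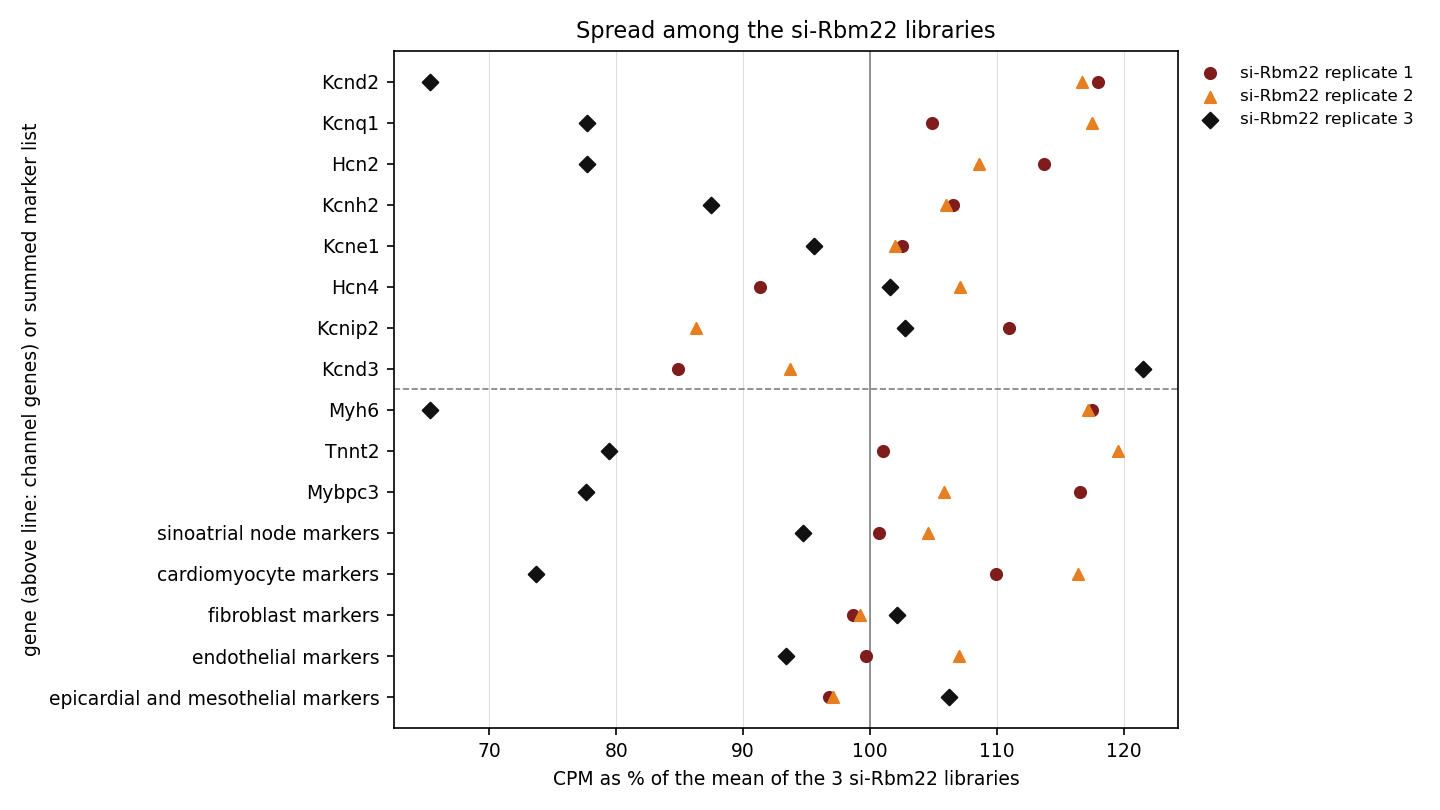
CPM in each si-Rbm22 library as a percentage of the mean of the 3 libraries (x axis) for the 8 tested channel genes, 3 cardiomyocyte genes and 5 summed marker lists (rows). Replicate 3 (diamonds) was lowest for Kcnd2, Kcnq1, Hcn2, Kcnh2 and Kcne1 and for the cardiomyocyte genes, but not for Hcn4, Kcnip2 and Kcnd3.

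Across the rest of the family, genes moved in both directions. Of 47 other Kv pore, Kv accessory and HCN-related genes listed, 40 had a row in the table and the other 7 were not analysed here. Of the 40, 20 were tested, 10 were higher and 8 lower in si-Rbm22, and 2, Kcnh3 and Kcne4, did not pass. Among all genes tested 43.1% were higher and 38.9% lower, so these counts lie near the background. The median log2 fold change of the 20 was 0.97, against 0.05 for all genes tested. The 20 include genes with no si-Control read, such as Kcng2 and Kcnq5, whose direction was fixed by the filter on low counts. They also include Hcn3, Pex5l, Kcnc2 and Kcnip3, which passed that filter only with their si-Control reads. Among pore subunits, 9 were higher and 3 lower. Kcng2, which encodes a silent subunit that joins Kv2 channels, had 3444, 2890 and 2416 reads in si-Rbm22 and none in si-Control (at least 2844-fold higher). Kcna7, a Kv1 gene of heart and skeletal muscle, had a count ratio of 99.0 (counting interval 38.4 to 365.3). Kcnq5 was at least 175.5-fold higher, Kcna4 rose by 1.04 on the log2 scale (SE 0.240) and Kcnf1 by 0.91 (SE 0.226).

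The pore genes that were lower in si-Rbm22 were Kcnc2, which encodes the fast Kv3.2 channel (log2 fold change −4.46, SE 0.357, adjusted p = 3.70e-08), Kcnd1 and Kcna6 (−1.25, SE 0.322). Kcnc2 needed its si-Control reads to pass the filter on low counts, so its p-value is no support. Among accessory genes, the Kv beta subunit gene Kcnab1 was higher, at 107.6 ± 14.0 CPM in si-Rbm22 and 12.5 ± 0.254 CPM in si-Control (adjusted p = 2.40e-12). Its relatives Kcnab3 (log2 fold change −3.23, SE 0.245) and Kcnab2 (−1.59, SE 0.174) were lower, with Kcnip3. The 20 untested genes had few reads: in si-Rbm22, Kcna1 and Kcnb2 led with 34 and 33 reads in total.

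**Figure D4:**
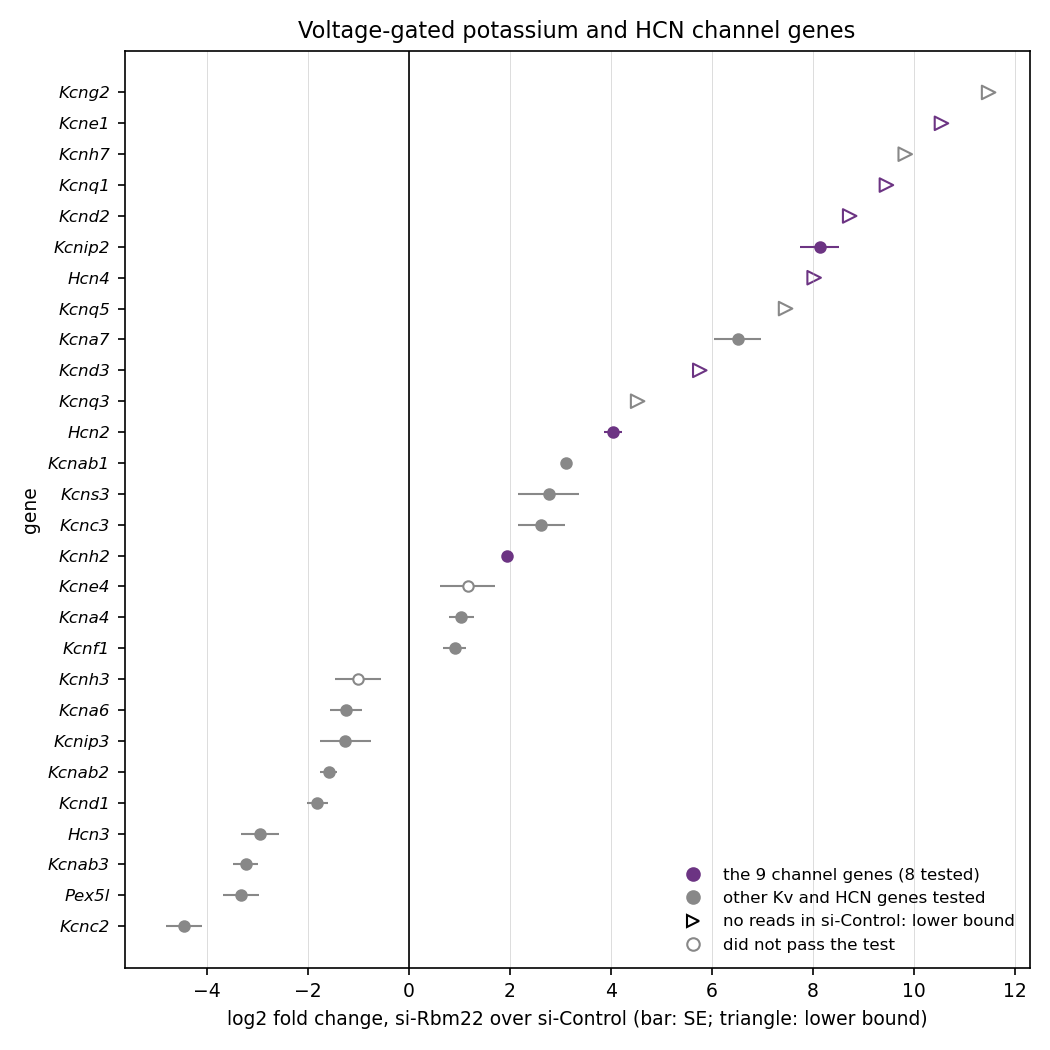
Log2 fold change, si-Rbm22 over si-Control (x axis, bars are SE), of the 8 tested channel genes and 20 other tested family genes (rows). Open triangles are lower bounds for genes with no si-Control read and open circles genes that did not pass. All 8 channel genes lie right of 0, and 8 of the other genes that passed lie left of it.

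Of 8 genes for proteins that carry these channels to the membrane or anchor them, 5 were higher and 3 lower in si-Rbm22. The smallest p were those of Rnf207, which in rabbit and human cells raises Kv11.1 levels (log2 fold change 7.27, SE 0.195, adjusted p = 1.62e-11), of the muscle caveolin gene Cav3 (count ratio 1286, counting interval 590.4 to 3504, adjusted p = 1.62e-09) and of Nedd4l, a ubiquitin ligase that acts on Kv7.1 (1.10, SE 0.0701, adjusted p = 2.93e-09). Of 9 genes for transcription factors known to act on these channel genes, 7 were higher and 2 lower. The smallest p were those of the cardiac factor genes Gata6 (log2 fold change 6.50, SE 0.0938, adjusted p = 7.14e-16), Mef2c (count ratio 591.3, counting interval 374 to 998.1) and Gata4 (3.91, SE 0.0670). Cav3 and Mef2c entered the test only through their si-Rbm22 reads, so their p-values are no support. Both lists were read against the same 43.1% of genes called higher and 38.9% called lower.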

How the data were processed

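RNA sequencing read counts of 6 libraries were used, 3 si-Rbm22 and 3 si-Control, with groups and replicate numbers from the sample titles. The deposited table holds whole-number counts per Ensembl gene, which the authors had not normalized, since column totals differ. Per the submitters' processing notes, the build was GRCm38; HTSeq, HISAT2, fastp and DESeq2 are named there without roles. The sources used here give no version, annotation release or strand setting. Of 18951 identifiers, 18856 matched GENCODE M21, an annotation of GRCm38, which gave symbols, positions and exon lengths. The 9 genes, the other gene lists and the tests were chosen with earlier results of these data known.

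The test was edgeR 4.0.16 (R 4.3.3) with TMM scaling, filterByExpr, a robust quasi-likelihood fit with group as the only term, and Benjamini-Hochberg adjustment over all genes tested. It was first tested on simulated data. SE is the absolute log2 fold change over the square root of F. Genes with no si-Control read have a lower bound at 3 counts over that group, and genes with few reads a 95% counting interval of the ratio. The bound allows for counting error in si-Control only, and the interval covers counting error only. RPKM is scaled CPM per kilobase of the union of exons. Named beside the 9 genes are the other Kv and HCN genes that passed and averaged 1 CPM or more, and the 3 smallest p of each further list. Kcnh3, Kcne4, Kcnip3, Tbx3, Shox2, Isl1, Smoc2 and untested genes were named beyond that rule, after their values were seen. The cardiomyocyte markers named were not picked by that rule either. A few genes of the lists are not reported here and were left out of the lists' counts and sums. Alternatives were RLE factors, other filters, each library left out, a replicate block, DESeq2 1.42.0, limma-voom (limma 3.58.1), mitochondrial transcripts left out and other thresholds. Leaving out the libraries that go against their label was not possible, as they are all of si-Control.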

Additional observations from a re-analysis of the deposited data

How the results depend on the processing

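The 13 alternative values each for Kcnh2 and Hcn2 kept their direction and stayed past the test. The other 6 tested genes, with 3 si-Control reads or fewer, could not reverse, and their values say nothing on stability. The log2 fold change ranged from 1.89 to 2.03 for Kcnh2, from 3.93 to 4.18 for Hcn2, and from 7.57 (without si-Control replicate 2) to 8.98 (without si-Control replicate 3) for Kcnip2. With no filter on low counts, 9 of the 9 channel genes and 17 other family genes were higher, as Kcna5 and other sparse genes were then tested. With 10 CPM required in 3 libraries, only 4 of the 9 (Kcnh2, Kcne1, Hcn2 and Kcnq1) and 3 higher and 1 lower of the other family genes remained in the test and passed. Requiring a 2-fold change left 3566 genes higher and 2735 lower in all. Leaving out each library in turn gave 8 channel genes and 10 to 12 other family genes higher, and 7 to 9 other family genes lower. With the replicate number as a block, 8 channel genes were higher and 0 lower, 10 other family genes higher and 8 lower, and 6264 genes in all higher and 5681 lower, so it changed no call of a channel gene. Same-numbered libraries did not deviate together (correlations −0.0164 to 0.00841, against −0.0181 to 0.0122 for differently numbered ones). With groups of unlike marker content, this cannot show whether same-numbered cultures shared an isolation. With the longest coding transcript as length, an alternative chosen after seeing the data, the order of the 9 genes by RPKM stayed, with Kcnq1 at 6.46 and Kcnip2 at 3.67. Depth limits Kcna5 and Kcnd3 most.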

Other observations

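Marker genes of the sinoatrial node, where HCN channels are most used, moved in both directions. Of 10 sinoatrial node markers, 6 were higher and 4 lower in si-Rbm22, and their summed level was 347.4 to 383.5 CPM in si-Rbm22 and 204.2 to 220.8 CPM in si-Control. Rgs6, a regulator of G protein signalling that damps vagal slowing, had no si-Control read and was at least 1022-fold higher than the floor of 3 counts over si-Control, a difference fixed by the filter on low counts. Tbx18, a factor of the node's head, rose by 1.45 on the log2 scale (SE 0.0649), and the T-type calcium channel gene Cacna1g rose by 3.06 (SE 0.120). The node factor genes Shox2 (0.982 ± 0.533 CPM in si-Rbm22 and 45.6 ± 2.47 CPM in si-Control), Isl1 (0.390 ± 0.0495 CPM in si-Rbm22 and 2.20 ± 0.400 CPM in si-Control) and Tbx3 (5.38 ± 0.679 CPM in si-Rbm22 and 12.9 ± 1.2 CPM in si-Control; SD, n = 3 each) were lower in si-Rbm22, as was Smoc2. Hcn4 thus stood beside both higher and lower node markers. All 5 ventricular conduction markers were higher in si-Rbm22. They included Id2 (log2 fold change 3.24, SE 0.110), Cntn2 (at least 335.2-fold higher) and the connexin 40 gene Gja5 (6.86, SE 0.220). Tbx3 was held by 2 of the lists. The share of all genes called higher was 43.1%.

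The genes nearest to each channel gene were found by the root mean square difference of centred log2 CPM (prior count 2) over the 6 libraries, among 12722 protein-coding genes that averaged 1 CPM or more. The 2 nearest were Tuba8 (0.023) and Prdm16 (0.058) for Kcnq1, Arhgap26 (0.025) and Fgd4 (0.102) for Hcn2, and Dock4 (0.040) and Dhrs11 (0.043) for Kcnh2. For Hcn4 they were Gstm4 (0.062) and Myl4 (0.068), for Kcnd3 Trnp1 (0.078) and Eng (0.121), and for Kcnd2 Cited4 (0.081) and Myom1 (0.125). Kcne1 was nearest to Emcn (0.084) and Ppp1r9a (0.098), and Kcnip2 to Nnat (0.166) and Smpd3 (0.183). Between 108 genes (Kcne1) and 1247 genes (Kcnh2) lay within 0.5 of a channel gene. The prior count limits how far a gene with no si-Control read can fall, so genes with many si-Control reads can lie near it. Eng had 488 and Myom1 318 si-Control reads, where Kcnd3 and Kcnd2 had no read. This nearness is a description over 6 libraries in 2 groups and carries no test.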
